A study of Homo sapiens with 16 samples.

Results

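CXC chemokines are small secreted proteins that steer leukocytes, and their receptors are seven-pass membrane proteins that couple to inhibitory G proteins. The 10 genes followed here are 8 CXC chemokine genes, CXCL1, CXCL2, CXCL3, CXCL5, CXCL8, CXCL10, CXCL11 and CXCL16, and the 2 receptor genes CXCR2 and CXCR4. They were taken by name, as the rows whose Ensembl identifiers carry these symbols in GENCODE release 44, and make up 10 of the 60676 genes in the deposited count table. All 10 had enough counts to be tested. They were measured by RNA sequencing in THP-1, a human acute monocytic leukemia line that phorbol ester drives into macrophage-like cells. Each of the lines shNC (control hairpin), shUHRF1, shDNMT1 and shDNMT3B carried a stably integrated short hairpin under puromycin selection, the last 3 aimed at genes of DNA methylation, and 1 line was sequenced per target. Each line was kept for 48 h with the solvent DMSO or with 100 ng/ml of the phorbol ester PMA, which gave 8 groups with 2 libraries in each. The labels do not say whether the replicates were separate cultures, so the p values measure the spread between these libraries, which may be technical.

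The chemokines split by a short motif before their first cysteines. CXCL1, CXCL2, CXCL3, CXCL5 and CXCL8 (interleukin-8) carry glutamate, leucine and arginine there (the ELR motif), bind CXCR2 and draw neutrophils. CXCL10 and CXCL11 lack it, bind CXCR3, are classical interferon-induced genes and draw activated T cells. CXCL16 is made as a membrane-anchored protein that is shed and binds CXCR6, and CXCR4 is the receptor for CXCL12, which holds blood progenitors in the marrow. Monocytes and macrophages are a known source of the ELR chemokines, whose genes are activated by NF-kB and AP-1 after inflammatory signals.

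Levels are given as CPM, a library's counts scaled to a common depth with TMM factors, as mean ± SD of 2 libraries, and a gene was called when its adjusted p over all 16503 tested genes was under 0.05 in edgeR's quasi-likelihood test, with no limit on the fold change. Library totals ran from 13883556 to 23151864 counts, and every library numbered 1 (20384066 counts or more) was deeper than every library numbered 2 (15679327 or fewer). Mitochondrially encoded genes held 24.4% to 29.0% of the counts in the DMSO libraries numbered 1 and 9.86% to 14.5% in those numbered 2, against 7.71% to 19.5% and 3.92% to 9.35% in PMA, so this share moved with the treatment. It also moved with the line in PMA, where it was 19.5% and 9.35% in shDNMT3B against 10.3% and 4.76% in shNC. Its part in the PMA responses and in the differences of shDNMT3B from shNC was not tested. In 12 of 16 sample records the description named another condition than the title, and the table's columns were assigned by the condition and number in their own names, so every group label and replicate number rests on those names. The study checked depletion of the target proteins by western blot, and protein was not measured in these libraries. The transcript of the hairpin's target was not called lower in its own line in DMSO. The log2 difference from shNC was -0.36 for UHRF1 in shUHRF1, -0.25 for DNMT1 in shDNMT1 and -0.48 for DNMT3B in shDNMT3B (edgeR, adjusted p = 0.605, 0.787 and 0.212). In PMA none was lower, with differences of 0.87, 0.45 and 1.06 in the same order (edgeR, adjusted p = 0.129, 0.376 and 0.00688). DNMT3B was thus called higher there, and with the replicate number as a block all were (edgeR, adjusted p = 3.8e-04, 0.00418 and 0.00183). UHRF1 was also called higher in shDNMT1 PMA and shDNMT3B PMA (2.52 and 2.33, edgeR, adjusted p = 9.0e-05 and 1.5e-04). Of the 9 myeloid markers all had counts, and their summed level was 844 to 1165 CPM in DMSO and 2497 to 3337 CPM in PMA. The 4 T cell markers summed to at most 0.368 CPM, with CD3D at 0 throughout, and the 4 B cell markers to between 4.71 and 32.2 CPM. The 7 epithelial, fibroblast and endothelial markers summed to between 0.416 and 1.88 CPM in DMSO and between 12.8 and 23.0 CPM in PMA, with KRT5 and CDH5 at 0 throughout, and the 6 neutrophil markers to between 37.6 and 90.2 CPM. The 5 erythroid markers reached 489 CPM in a DMSO library and 0.340 CPM at most in PMA. This came from shNC DMSO, where HBB stood at 116 ± 164 CPM, and the part of that library in the results was not tested beyond leaving it out. In bulk RNA, fewer cells of a type and less RNA per cell cannot be told apart.

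Of the 8 chemokine genes, 7 lie on chromosome 4 (hg38), CXCL8 at 73740519 to 73743716 and CXCL1 at 73869393 to 73871308 on the plus strand, and CXCL5 at 73995642 to 73998677, CXCL3 at 74036589 to 74038807, CXCL2 at 74097040 to 74099196, CXCL10 at 76021118 to 76023497 and CXCL11 at 76033682 to 76041415 on the minus strand. CXCL16 lies on chromosome 17 (4733533 to 4739928, minus strand). On chromosome 2 are CXCR2 (218125289 to 218137251, plus strand) and CXCR4 (136114349 to 136119177, minus strand). Promoter sequence is shown for the chromosome 4 genes because they form the blocks that moved together, the ELR genes in PMA and CXCL10 with CXCL11 in DMSO. The stretches below come from RefSeq windows of 300 bases (GRCh38.p14), from 250 bases before the annotated start to 50 after it, and are written 5′ to 3′ on the gene's strand. The RefSeq start need not be the end of the GENCODE span given above. For CXCL11 the window, 76036021 to 76036320, lies inside that span, whose minus-strand start is at 76041415. Capitals mark matches, on either strand, to the kappaB-like GGAATTTCC, the AP-1 motif TGANTCA and the interferon response motif GAAANNGAAA.

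CXCL8, chr4:73740407-73740511, plus strand: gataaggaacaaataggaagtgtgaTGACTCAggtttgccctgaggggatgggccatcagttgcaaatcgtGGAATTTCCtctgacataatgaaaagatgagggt
CXCL1, chr4:73869290-73869348, plus strand: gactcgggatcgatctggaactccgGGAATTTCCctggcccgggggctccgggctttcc
CXCL5, chr4:73998734-73998792, minus strand: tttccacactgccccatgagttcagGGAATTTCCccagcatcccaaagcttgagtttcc
CXCL3, chr4:74038734-74038792, minus strand: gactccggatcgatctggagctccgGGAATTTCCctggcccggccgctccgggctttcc
CXCL2, chr4:74099239-74099297, minus strand: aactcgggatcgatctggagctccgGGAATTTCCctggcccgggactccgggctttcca
CXCL10, chr4:76023640-76023743, minus strand: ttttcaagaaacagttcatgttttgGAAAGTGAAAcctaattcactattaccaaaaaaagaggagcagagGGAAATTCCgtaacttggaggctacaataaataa
CXCL11, chr4:76036112-76036182, minus strand: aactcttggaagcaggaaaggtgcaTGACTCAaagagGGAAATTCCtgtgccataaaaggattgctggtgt

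The GGAATTTCC match was present in all 7 windows, on the gene's strand in the 5 ELR genes and on the other strand in CXCL10 and CXCL11. It began 78, 77 and 78 bases before the start in CXCL1, CXCL2 and CXCL3, 90 and 91 bases before it in CXCL5 and CXCL8, 75 before it in CXCL11 and 176 before it in CXCL10. Of all 35116 RefSeq promoter windows, 0.461% held this motif, 7.71% held TGANTCA and 3.57% held GAAANNGAAA. Among the 9 genes with a window (CXCL16 had none), AP-1 matches were found in CXCL8 and CXCL11 and the GAAANNGAAA match in CXCL10. The letters GGAATTTCC were picked after these promoters had been read, the genes are related by duplication, and a match describes the sequence and not a bound site. No match to the 3 motifs lay in the windows of CXCR2 or CXCR4. The windows also differed in CpG dinucleotides, the positions that DNA methyltransferases modify: 22 in CXCL1, 22 in CXCL2 and 24 in CXCL3, against 9 in CXCL5, 4 in CXCL8, 3 in CXCL10, 0 in CXCL11 and 7 in CXCR2, with a median of 14 over all windows. The 3 RefSeq windows of CXCR4 held 9, 14 and 27. Methylation at these positions was not analysed here.

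PMA turned on the ELR chemokine genes, which were nearly silent in DMSO. All 5 rose in each of the 4 lines, CXCL8 to the highest level. CXCL8 had 36 and 77 counts in the shNC libraries in DMSO and 96040 and 56063 in PMA. In CPM these were 1.89 and 4.09 against 5047 and 4047, so the treatments did not overlap, and CXCL8 alone held 0.403 ± 0.0240% of all counts in shNC PMA (n = 2). The change from DMSO was 10.57 on the log2 scale (SE 0.48, edgeR, adjusted p = 2.9e-09). CXCL1, a growth-regulated chemokine, went from 0.631 and 0.266 CPM to 118 and 111 CPM, a log2 change of 7.97 (SE 0.30, edgeR, adjusted p = 8.8e-10). CXCL2, its close paralog, rose from 0.368 and 0.585 CPM to 87.6 and 90.4 CPM (7.53, SE 0.27, edgeR, adjusted p = 5.7e-10). CXCL3, the third of these paralogs, had 0 and 7 counts in DMSO and 4397 and 2725 in PMA (log2 change 10.12, SE 0.60, edgeR, adjusted p = 5.9e-08). CXCL5, which like CXCL8 acts on neutrophils, had no count in any of the 8 DMSO libraries and 236 and 160 counts in shNC PMA. Against a floor of 3 counts over the DMSO group it was at least 152-fold higher. In each of these 5 genes the lowest PMA library of shNC exceeded the highest DMSO library of any line.

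The size of the rise varied between the lines. CXCL8 rose least in shDNMT1, with a log2 change of 7.25 (SE 0.43), against 9.07 (SE 0.46) in shDNMT3B and 11.15 (SE 0.50) in shUHRF1 (edgeR, adjusted p = 3.0e-08, 1.1e-08 and 2.3e-09). For CXCL1 the values were 5.35, 7.21 and 8.83, and for CXCL2 they were 4.74, 5.42 and 8.46, in the same order of lines. CXCL5 rose from no count to 254 and 233 counts in shUHRF1, 42 and 21 in shDNMT1 and 95 and 53 in shDNMT3B, at least 211-fold, 22.2-fold and 60.2-fold. CXCL3 had no count in shDNMT1 DMSO and 274 and 156 in shDNMT1 PMA, at least 152-fold higher. It rose by 10.56 in shUHRF1 and 7.69 in shDNMT3B (edgeR, adjusted p = 5.3e-08 and 8.0e-07). All 5 genes passed the test in each line.

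CXCL16 and the receptors responded in other ways. CXCL16 was at 1.26 and 1.33 CPM in shNC DMSO and at 87.3 and 58.8 CPM in shNC PMA, a log2 change of 5.81 (SE 0.39, edgeR, adjusted p = 6.7e-08), and rose by 5.84 in shUHRF1, 7.47 in shDNMT1 and 7.15 in shDNMT3B (edgeR, adjusted p from 2.9e-08 to 7.4e-08). CXCR2, a receptor of the ELR chemokines, fell as its ligands rose. It had 228 and 219 counts in shNC DMSO and 1 and 3 counts in shNC PMA, which is 11.99 and 11.6 CPM against 0.0526 and 0.217 CPM. The log2 change was -6.51 (SE 0.46, edgeR, adjusted p = 1.2e-07), and it was -2.99 in shUHRF1, -2.56 in shDNMT1 and -2.92 in shDNMT3B (edgeR, adjusted p = 9.3e-06, 2.4e-05 and 1.7e-05). CXCR4 stood at 76.8 and 51.3 CPM in shNC DMSO and 78.8 and 53.9 CPM in shNC PMA, and these ranges overlapped. It was not called in shNC (log2 change 0.05, SE 0.34, edgeR, adjusted p = 0.907) or shUHRF1 (0.05, adjusted p = 0.918), 2 values that became -0.23 and -0.27 with upper-quartile factors. In shDNMT1 CXCR4 fell from 132 and 91.6 to 20.1 and 15.9 CPM (-2.63, SE 0.36, edgeR, adjusted p = 5.3e-05). In shDNMT3B the log2 change was -0.48 (SE 0.34, adjusted p = 0.269), which passed with the replicate number as a block (edgeR, adjusted p = 0.00104).

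CXCL10 and CXCL11 responded less in the control line than in the knockdown lines, a difference tested further on. CXCL10 went from 40.9 and 28.1 to 127 and 91.0 CPM in shNC (log2 change 1.66, SE 0.28, edgeR, adjusted p = 2.9e-04). It rose by 3.66 in shUHRF1, 7.11 in shDNMT1 and 5.50 in shDNMT3B (SE 0.31, 0.38 and 0.34, edgeR, adjusted p = 6.0e-07, 1.1e-08 and 5.6e-08). CXCL11 was at 6.84 and 6.59 CPM in shNC DMSO and 13.5 and 10.6 CPM in shNC PMA, groups that did not overlap. Its log2 change of 0.84 (SE 0.34) missed the threshold (edgeR, adjusted p = 0.0525) and passed it with the replicate block (adjusted p = 0.00288). This change also passed in DESeq2 (0.00322), in the exact test after DEGES (0.0111), without the filter on low counts (0.013) and with only the groups compared (0.031). In shUHRF1, shDNMT1 and shDNMT3B it rose by 3.43, 6.96 and 6.81 (edgeR, adjusted p = 1.0e-05, 2.0e-07 and 3.2e-07).

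In all, PMA raised 7 of the 10 genes and lowered 1 in shNC, where 28.4% of all tested genes were called up and 26.0% down. The counts were 8 up and 1 down in shUHRF1 (29.4% and 25.5% of all genes), 8 and 2 in shDNMT1 (28.6% and 24.1%), and 8 and 1 in shDNMT3B (25.2% and 19.7%). Their median log2 change was 6.67 in shNC, beside -0.00494 over all tested genes. Upper-quartile factors moved the median of all genes to -0.285 in shNC and turned 4688 up and 4295 down into 3696 and 5609, while 7 of the 10 genes were called up and 1 down with these factors too.

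**Figure D1:**
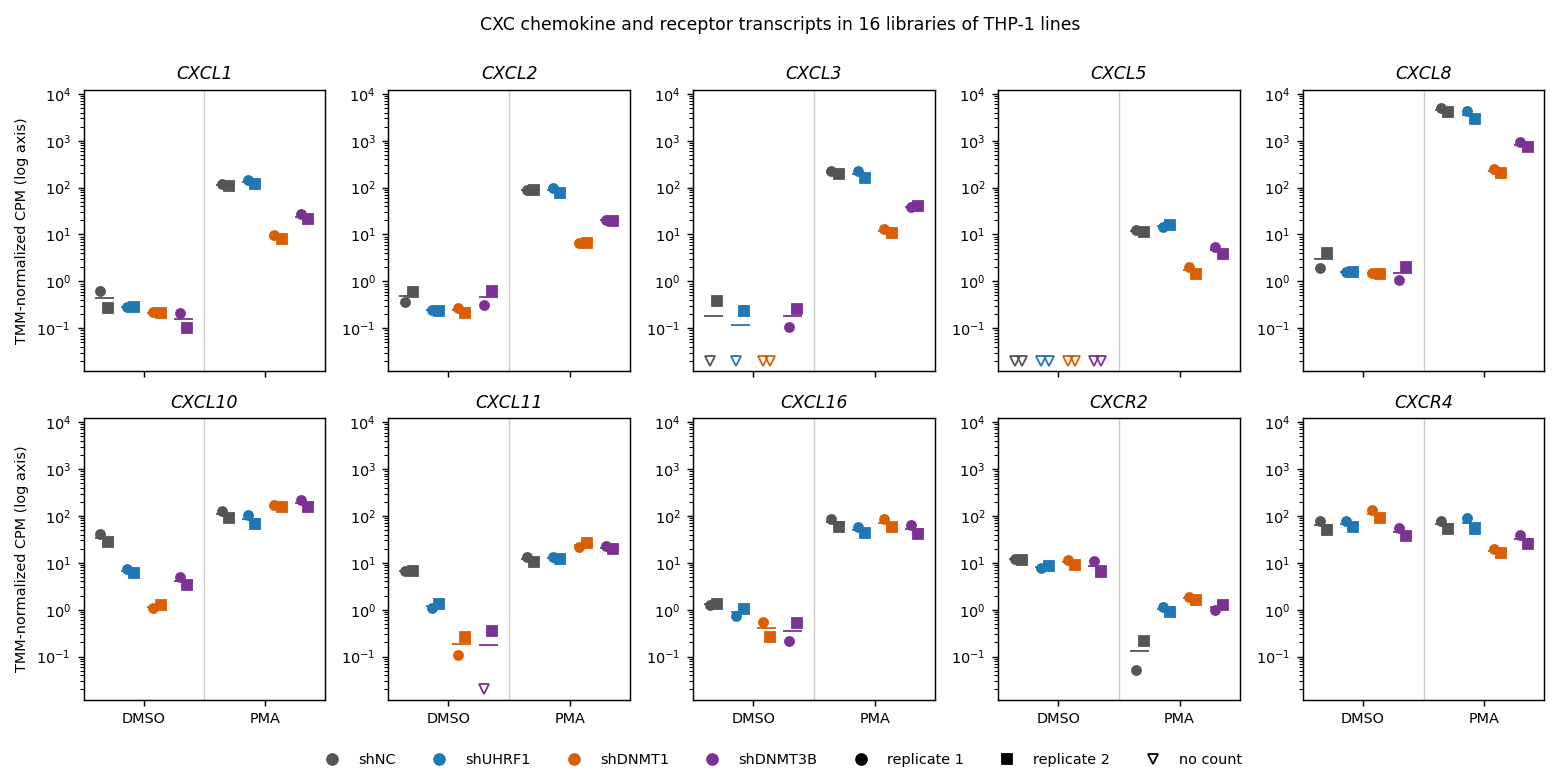
Level of each of the 10 genes in TMM-normalized CPM on a log axis, in the 4 lines (colours) in DMSO (left of each panel) and PMA (right); circles are replicate 1, squares replicate 2, bars the mean of 2 libraries, and open triangles at the bottom libraries with no count. In shNC, CXCL8 went from 1.89 and 4.09 to 5047 and 4047 CPM, CXCL5 had no count in any DMSO library, and CXCR2 fell to 0.0526 and 0.217 CPM in PMA.

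**Figure D2:**
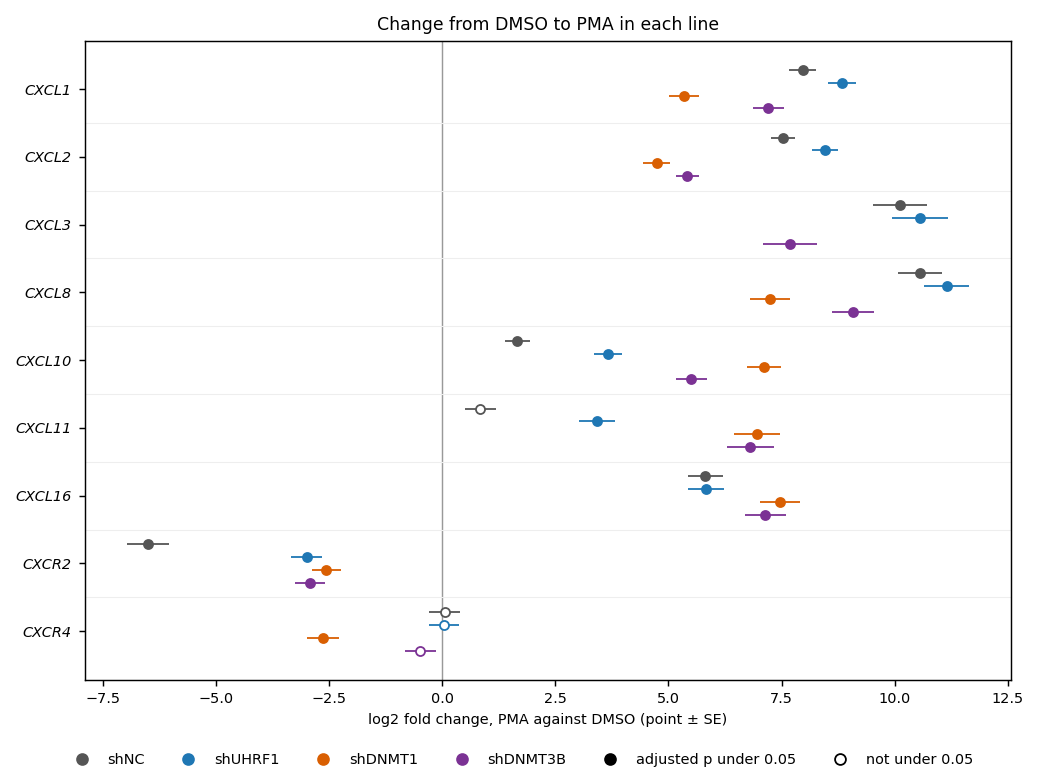
Log2 fold change from DMSO to PMA (point ± SE, edgeR) in shNC, shUHRF1, shDNMT1 and shDNMT3B; filled points have an adjusted p under 0.05, and CXCL5 and CXCL3 in shDNMT1 are left out because their DMSO groups had no count. CXCL8 rose by 10.57 in shNC and 7.25 in shDNMT1, whereas CXCL10 rose by 1.66 and 7.11.

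Which CXC transcripts differ between the lines before PMA is the question of the comparisons in DMSO. CXCL10 and CXCL11 were lower in all 3 knockdown lines, and edgeR called no other member. CXCL10 was at 34.5 ± 9.10 CPM in shNC, 6.84 ± 0.934 in shUHRF1, 1.17 ± 0.114 in shDNMT1 and 4.16 ± 1.06 in shDNMT3B (n = 2). Every knockdown library lay below both shNC libraries, which held 778 and 528 counts against 155 and 130, 20 and 24, and 93 and 67. The log2 differences from shNC were -2.33 (SE 0.30), -4.88 (SE 0.36) and -3.05 (SE 0.31), in this order (edgeR, adjusted p = 0.00139, 4.0e-06 and 8.7e-05). CXCL11 had 130 and 124 counts in shNC, 22 and 28 in shUHRF1, 2 and 5 in shDNMT1 and 0 and 7 in shDNMT3B. Its log2 differences were -2.48 (SE 0.39), -5.12 (SE 0.52) and -5.16 (SE 0.52) (edgeR, adjusted p = 0.00657, 8.2e-05 and 8.1e-05). The background was 1.15% of all tested genes called down and 0.170% up in shUHRF1, 3.39% and 0.570% in shDNMT1, and 2.89% and 1.62% in shDNMT3B. Without shNC DMSO replicate 1, which held the erythroid transcripts, CXCL10 and CXCL11 were called in each of the 3 lines (CXCL10 log2 difference -2.04, -4.58 and -2.76). Without shUHRF1 DMSO replicate 1, CXCL11 was not called in shUHRF1 (-2.33, edgeR, adjusted p = 0.114). With the spread estimated from the groups compared alone, neither gene was called in shUHRF1 (adjusted p = 0.0511 and 0.0637), nor CXCL11 in shDNMT3B (0.0834).

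The ELR genes were near the detection limit in DMSO, where 3 counts over a group equal 0.0720 to 0.0797 CPM. CXCL8, the most abundant of them, had 33 and 33 counts in shUHRF1, 28 and 28 in shDNMT1 and 20 and 39 in shDNMT3B, against 36 and 77 in shNC. The log2 differences were -0.92, -1.0 and -0.97 (SE 0.39 in each) and were not called (edgeR, adjusted p = 0.318, 0.221 and 0.207). CXCL1 differed by -0.63, -1.06 and -1.49 and CXCL2 by -0.97, -0.97 and -0.03, with none called. CXCL16 had 24 and 25 counts in shNC, 10 and 5 in shDNMT1 and 4 and 10 in shDNMT3B. Its differences of -1.68 and -1.82 in the last 2 lines missed the threshold (edgeR, adjusted p = 0.113 and 0.0796) and passed it with the replicate block (0.00922 and 0.00480) and in DESeq2 (0.0331 and 0.0176). CXCR4 was highest in shDNMT1, at 132 and 91.6 CPM, and lowest in shDNMT3B, at 54.0 and 37.2 CPM. Against shNC these were log2 differences of 0.80 and -0.49 (edgeR, adjusted p = 0.262 and 0.495), both called with the block (2.4e-05 and 0.00487). CXCR2 lay between 8.20 ± 0.780 and 11.8 ± 0.250 CPM in the 4 lines and was not called in any of them.

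In PMA, shDNMT1 cells held far less of each of the 5 ELR transcripts followed here than the control line. CXCL8 was at 245 and 209 CPM in shDNMT1, 923 and 726 CPM in shDNMT3B, 4263 and 2957 CPM in shUHRF1 and 5047 and 4047 CPM in shNC. Both shDNMT lines lay below both shNC libraries, while shUHRF1 and shNC overlapped. The log2 difference from shNC was -4.32 (SE 0.36) in shDNMT1 and -2.46 (SE 0.33) in shDNMT3B, 20.03-fold and 5.52-fold lower (edgeR, adjusted p = 1.0e-05 and 3.1e-04). In shUHRF1 it was -0.33 (SE 0.32, adjusted p = 0.688). CXCL1 was at 9.75 and 8.07 CPM in shDNMT1 and 26.8 and 21.2 CPM in shDNMT3B, against 118 and 111 CPM in shNC, differences of -3.67 (SE 0.22) and -2.25 (SE 0.21) (edgeR, adjusted p = 1.8e-06 and 2.4e-05). CXCL2 differed by -3.75 and -2.13 and CXCL3 by -4.17 and -2.46 (edgeR, adjusted p = 7.3e-07, 1.6e-05, 4.6e-05 and 9.0e-04). CXCL5 had 42 and 21 counts in shDNMT1 and 95 and 53 in shDNMT3B against 236 and 160 in shNC, differences of -2.78 and -1.38 (edgeR, adjusted p = 4.3e-04 and 0.00971). The last was not called without shNC PMA replicate 1 (-1.32, adjusted p = 0.0598) or without shDNMT3B PMA replicate 2 (-1.14, adjusted p = 0.0778). In shUHRF1 the 5 differences lay between -0.33 and 0.35 and were not called (edgeR, adjusted p from 0.60 to 0.965, unadjusted p from 0.220).

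Together the 5 ELR genes summed to 4976 ± 735 CPM in shNC PMA, 4038 ± 998 in shUHRF1, 256 ± 28.6 in shDNMT1 and 912 ± 143 in shDNMT3B (n = 2). Their proportions moved little: CXCL8 made up 91.3 ± 0.719% of the ELR counts in shNC, 89.3 ± 0.807% in shUHRF1, 88.6 ± 0.00523% in shDNMT1 and 90.3 ± 1.03% in shDNMT3B. Across the 8 group means of log2 CPM, the 10 pairs of ELR genes had Pearson's r from 0.993 to 0.997, given as a description, since all share the same libraries and the same contrast of DMSO and PMA. Reads of CXCL1, CXCL2 and CXCL3 can be confused in counting. Of the 150-base stretches in CXCL2 transcripts, 1.96% occurred in CXCL3, and of those of 75 bases 7.35% in CXCL3 and 0.204% in CXCL1. CXCL5 and CXCL8 shared no stretch of 30 bases with them. Of the other genes that overlap a member on the opposite strand, MED11 (2580 counts over all libraries) and ZMYND15 (688) share part of the CXCL16 locus (8582 counts), and the strand setting of the counting is not given in the sources used here.

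CXCL10 and CXCL11 did not follow the ELR genes down. CXCL10 was at 170 and 155 CPM in shDNMT1 PMA and 224 and 154 CPM in shDNMT3B PMA, above the 127 and 91.0 CPM of shNC PMA. The log2 differences of 0.57 (SE 0.27) and 0.79 (SE 0.27) missed the threshold (edgeR, adjusted p = 0.199 and 0.0600) and passed with the replicate block (9.7e-04 and 3.6e-05). CXCL11 was at 21.5 and 26.7 CPM in shDNMT1 and 22.6 and 19.6 CPM in shDNMT3B against 13.5 and 10.6 CPM in shNC, with differences of 1.00 and 0.81 (SE 0.33 in each, edgeR, adjusted p = 0.0646 and 0.109, with the block 0.00135 and 0.00560). CXCL11 in both lines and CXCL10 in shDNMT3B also passed without the filter on low counts, with only the groups compared and in the exact test after DEGES. CXCL10 in shDNMT1 passed in none of these. In shUHRF1 PMA, CXCL10 differed by -0.34 and CXCL11 by 0.11, neither called. CXCL16 differed by -0.52 in shUHRF1, -0.03 in shDNMT1 and -0.48 in shDNMT3B, none called (edgeR, adjusted p = 0.425, 0.977 and 0.271), and the first and last passed with the block (0.0241 and 0.0137).

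The receptors went opposite ways in PMA. CXCR2 had 1 and 3 counts in shNC, 20 and 13 in shUHRF1, 40 and 23 in shDNMT1 and 17 and 18 in shDNMT3B, so that all 6 knockdown libraries lay above both control libraries, at 0.904 to 1.91 CPM. The log2 differences were 2.99 (SE 0.56), 3.76 (SE 0.52) and 3.11 (SE 0.56) (edgeR, adjusted p = 0.0125, 4.0e-04 and 0.00210). The call in shUHRF1 was lost without shNC PMA replicate 1 (2.21, adjusted p = 0.172) or without shUHRF1 PMA replicate 1 (2.81, adjusted p = 0.0871). CXCR4 was at 20.1 and 15.9 CPM in shDNMT1 and 40.2 and 24.9 CPM in shDNMT3B against 78.8 and 53.9 CPM in shNC and 88.4 and 52.8 CPM in shUHRF1. The difference was -1.88 (SE 0.35) in shDNMT1 (edgeR, adjusted p = 0.00341) and -1.03 (SE 0.34) in shDNMT3B, which missed the threshold (adjusted p = 0.0519) and passed it with the block (3.6e-07). The last also passed in DESeq2 (0.0244), in the exact test after DEGES (0.00382), with only the groups compared (0.0352) and without the filter on low counts (7.1e-05). In shUHRF1 the difference of CXCR4 was 0.09 (edgeR, adjusted p = 0.951).

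Counted over the 10 genes in PMA, 1 was called up and 0 down in shUHRF1, beside 2.04% of all tested genes up and 1.65% down. In shDNMT1, 1 was up and 6 were down, beside 8.50% and 6.35%. In shDNMT3B, 1 was up and 5 were down, beside 11.3% and 9.05%, and with the replicate block 3 were up and 7 down. In the fits without a block, DESeq2 called 1 up and 0 down in shUHRF1, 2 and 6 in shDNMT1 and 2 and 6 in shDNMT3B. Over all genes DESeq2 called 560 up and 492 down, 1601 and 1237, and 1922 and 1844, in the same order.

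**Figure D3:**
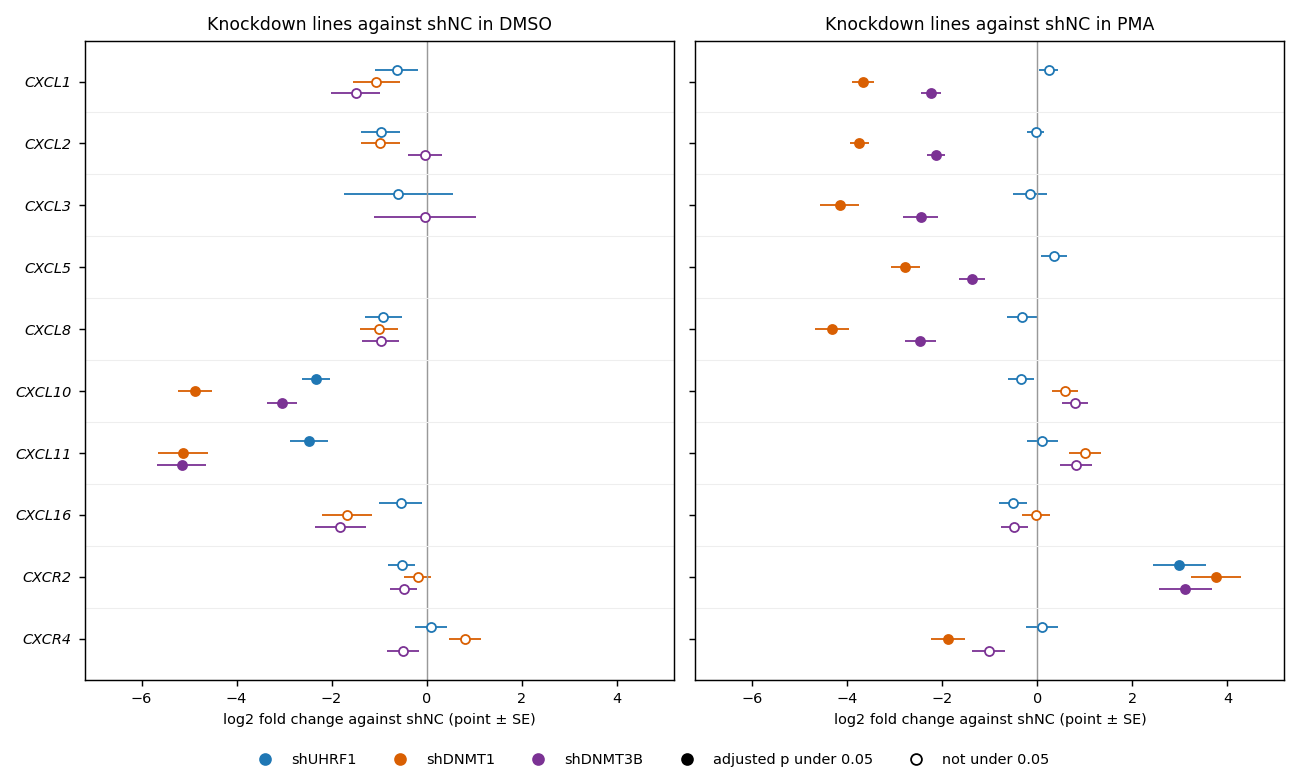
Log2 fold change of shUHRF1, shDNMT1 and shDNMT3B against shNC (point ± SE, edgeR) in DMSO (left) and PMA (right); filled points have an adjusted p under 0.05, and CXCL5 in DMSO and CXCL3 in shDNMT1 DMSO are left out because a group had no count. In DMSO, CXCL10 and CXCL11 alone are filled; in PMA, CXCL8 stands at -4.32 in shDNMT1 and -2.46 in shDNMT3B, and CXCR2 between 2.99 and 3.76.

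The difference of the PMA response between a knockdown line and shNC was tested directly. For CXCL10 it was 2.00 in shUHRF1, 5.45 in shDNMT1 and 3.84 in shDNMT3B, and for CXCL11 it was 2.59, 6.12 and 5.97 (log2, edgeR, adjusted p = 0.04, 1.8e-05, 1.5e-04, 0.0397, 8.5e-05 and 1.4e-04). Both genes were lower than in shNC in DMSO in these lines. In PMA they were not called different in any line in the main edgeR fit. Both were called higher in shDNMT1 and shDNMT3B with the block. All but CXCL10 in shDNMT1 were also called in the further alternatives named above. For CXCR2 the difference was 3.52, 3.95 and 3.59 (edgeR, adjusted p = 0.0243, 0.00154 and 0.00386). In shDNMT1 the response was lower than in shNC for CXCL1 (-2.62, SE 0.60), CXCL2 (-2.78, SE 0.51), CXCL8 (-3.32, SE 0.52) and CXCR4 (-2.68, SE 0.49) (edgeR, adjusted p = 0.02, 0.00502, 0.00175 and 0.00484). In shDNMT3B it was lower for CXCL2 (-2.10, SE 0.41, edgeR, adjusted p = 0.00773), while the -1.49 of CXCL8 missed the threshold (adjusted p = 0.111, with the block 0.0268). That of CXCL8 also passed in DESeq2 (-1.52, adjusted p = 0.0255) and in edgeR without the filter on low counts (0.0144). The -0.54 of CXCR4 in shDNMT3B and the 1.66 and 1.33 of CXCL16 in shDNMT1 and shDNMT3B missed the threshold (adjusted p = 0.624, 0.142 and 0.252) and passed with the block (0.0214, 0.0118 and 0.0472). The -2.43 of CXCL3 in shDNMT3B (SE 1.21) missed the threshold in edgeR (adjusted p = 0.303, with the block 0.237) and passed it in DESeq2 (-2.45, adjusted p = 0.044) and in edgeR without the filter on low counts (0.0494). No difference is given for CXCL5, or for CXCL3 in shDNMT1, because a DMSO group had no count. The members called were 3 up and 0 down in shUHRF1, beside 0.739% and 0.109% of all tested genes, 3 up and 4 down in shDNMT1, beside 5.64% and 1.07%, and 3 up and 1 down in shDNMT3B, beside 5.08% and 1.70%. In shDNMT3B the block gave 4 up and 3 down. The 3 comparisons share the shNC libraries. In shUHRF1 the 3 calls were not stable: leaving out any of the 8 libraries of this comparison lost calls among them. Where a gene's call was lost, its values ran from 1.62 to 2.26 for CXCL10, 2.43 to 2.77 for CXCL11 and 2.73 to 4.65 for CXCR2. The call of CXCL1 in shDNMT1 was lost without shNC DMSO replicate 2 (-2.13), shDNMT1 DMSO replicate 1 (-2.59) or shDNMT1 DMSO replicate 2 (-2.64). That of CXCL2 was lost without shDNMT1 DMSO replicate 1 (-2.59). With only the groups compared, the call of CXCL1 in shDNMT1 was lost too (-2.61, edgeR, adjusted p = 0.0548). In shDNMT3B, CXCL2 was not called without shDNMT3B DMSO replicate 2 (-1.55, adjusted p = 0.263).

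Levels of different genes were compared per transcript length, as TPM, counts divided by the summed exon length and scaled to a common total. In shNC DMSO, CXCL10 was the most abundant of the 10 genes at 80.0 ± 15.7 TPM, followed by CXCR4 at 59.9 ± 10.8, CXCL11 at 10.9 ± 4.62 and CXCR2 at 10.6 ± 4.55 TPM, and the other 6 were at 3.74 TPM or less. In shNC PMA, CXCL8 led at 4639 ± 153 TPM, ahead of CXCL3 (256 ± 19.2), CXCL10 (244 ± 11.8), CXCL1 (224 ± 32.3) and CXCL2 (171 ± 35.8 TPM), and the SD ranges of CXCL3, CXCL10 and CXCL1 overlapped. In shDNMT1 PMA, CXCL10 was at 422 ± 39.7 TPM and CXCL8 at 267 ± 12.8 TPM. The log2 ratio of CXCL10 to CXCL8 in TPM was 3.92 and 5.57 in the shNC DMSO libraries and -4.34 and -4.17 in those of shNC PMA, and between -4.33 and -4.18 in shUHRF1 PMA. In shDNMT1 PMA it was 0.611 and 0.706, close to the 0.654 and 0.917 of shDNMT1 in DMSO, and in shDNMT3B PMA it was -1.10 and -0.903. CXCL10 thus exceeded CXCL8 in both shDNMT1 PMA libraries and in no other PMA library.

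**Figure D4:**
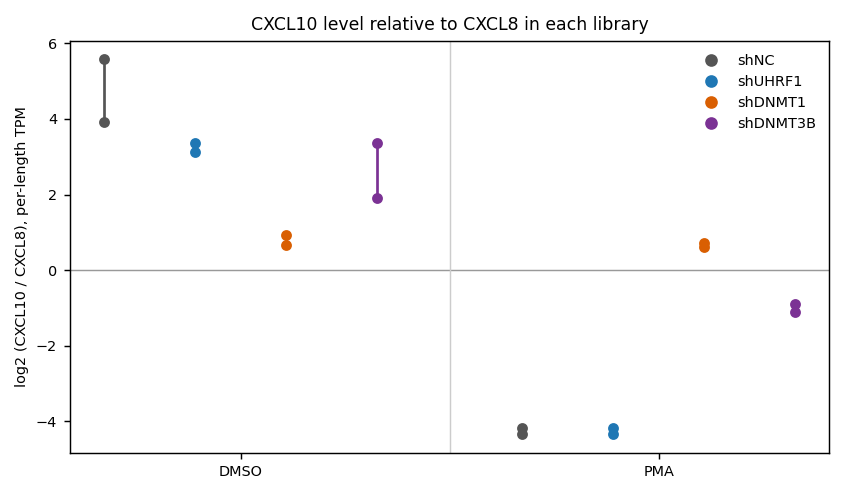
Log2 ratio of the CXCL10 to the CXCL8 level (TPM, per transcript length) in each library, by line and treatment; each point is a library and the line joins the 2 libraries of a group. The ratio falls from 3.92 and 5.57 to -4.34 and -4.17 in shNC, and stays between 0.611 and 0.917 in all 4 shDNMT1 libraries.

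Ordered over the 8 groups by mean CPM, the 4 PMA groups were above the 4 DMSO groups for each of the 8 chemokine genes. CXCL8, CXCL2 and CXCL3 stood in the order shNC, shUHRF1, shDNMT3B and shDNMT1 in PMA, with the libraries of the first pair overlapping and the others apart. CXCL1 and CXCL5 were highest in shUHRF1 PMA, at 134 ± 17.6 and 15.3 ± 1.29 CPM, whose libraries lay apart from those of shNC PMA at 114 ± 5.05 and 11.98 ± 0.603 CPM, though edgeR called neither difference. CXCL10 ran from 189 ± 49.4 CPM in shDNMT3B PMA, overlapping with shDNMT1 PMA at 162 ± 10.6, to 1.17 ± 0.114 CPM in shDNMT1 DMSO, with shNC PMA and shUHRF1 PMA overlapping in between and the 4 DMSO groups all apart. CXCL16 overlapped between neighbours throughout the PMA groups, at 51.0 ± 11.1 to 73.1 ± 20.1 CPM. CXCR4 ran from 112 ± 28.6 CPM in shDNMT1 DMSO to 18.0 ± 2.95 in shDNMT1 PMA, so the same line held both ends of its range, and the 6 groups in between overlapped with at least 1 neighbour.

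By the same 8 group means, the 2 genes most like each member were found among all tested genes of at least 1 CPM. For CXCL8 these were SNX9 (r = 0.999) and GPR137B (0.997), for CXCL1 LIF (0.999) and TIMP1 (0.997), for CXCL2 MMP1 (0.998) and CXCL3 (0.997), for CXCL3 PXN (0.998) and CXCL2 (0.997), and for CXCL5 AREG (0.999) and UBE2H (0.998). CXCL10 was most like XAF1 (0.996) and UBE2L6 (0.996), and CXCL11 most like IFI44 (0.992) and ATP10A (0.991). CXCL16 stood nearest to KLF6 and CD9 (0.999 each), CXCR2 to P4HB and HOTTIP (0.994 each), and CXCR4 less closely to LIN7C (0.963) and SHQ1 (0.929). These values cover 8 points that share libraries and are no test.

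On chromosome 4, 28 tested genes lay between 500 kb before CXCL8 and 500 kb after CXCL11 or overlapped these limits, 7 of them members. Among the other 21, 4 were called lower and 0 higher in shDNMT1 PMA against shNC PMA, 3 lower and 1 higher in shDNMT3B PMA, and 0 lower and 2 higher in shUHRF1 PMA. Over all tested genes 6.35% were called lower and 8.50% higher in shDNMT1, 9.05% and 11.3% in shDNMT3B, and 1.65% and 2.04% in shUHRF1. The neighbours are named here after their values were seen. CXCL6, a further ELR chemokine 96.1 kb from the start of CXCL8, was at 10.4 CPM in shNC, 1.07 in shDNMT1 and 3.93 in shDNMT3B (log2 difference -3.32 and -1.40, edgeR, adjusted p = 6.2e-04 and 0.0367). The growth factor genes EREG and AREG, both ligands of the EGF receptor, start 625 and 705 kb from the same point. AREG was at 50.1 CPM in shNC, 6.34 in shDNMT1 and 14.6 in shDNMT3B (-2.98 and -1.78, edgeR, adjusted p = 5.3e-06 and 1.5e-04). EREG, which was not called in shDNMT3B, was at 2.35 CPM in shNC and 0.229 in shDNMT1 (-3.46, edgeR, adjusted p = 0.0132). PARM1 was the other gene lower in both. PPBP, the gene of a further ELR chemokine, stored in platelets, lies between CXCL1 and CXCL5 and was not called in either line: it was at 4.95 CPM in shNC, 3.13 in shDNMT1 and 8.52 in shDNMT3B (-0.67 and 0.78, edgeR, adjusted p = 0.349 and 0.209). ALB was not called either. The higher genes were NAAA in shDNMT3B, and MTHFD2L and EPGN in shUHRF1. The median log2 difference of the 21 genes was -0.0465 in shDNMT1, -0.129 in shDNMT3B and 0.374 in shUHRF1.

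**Figure D5:**
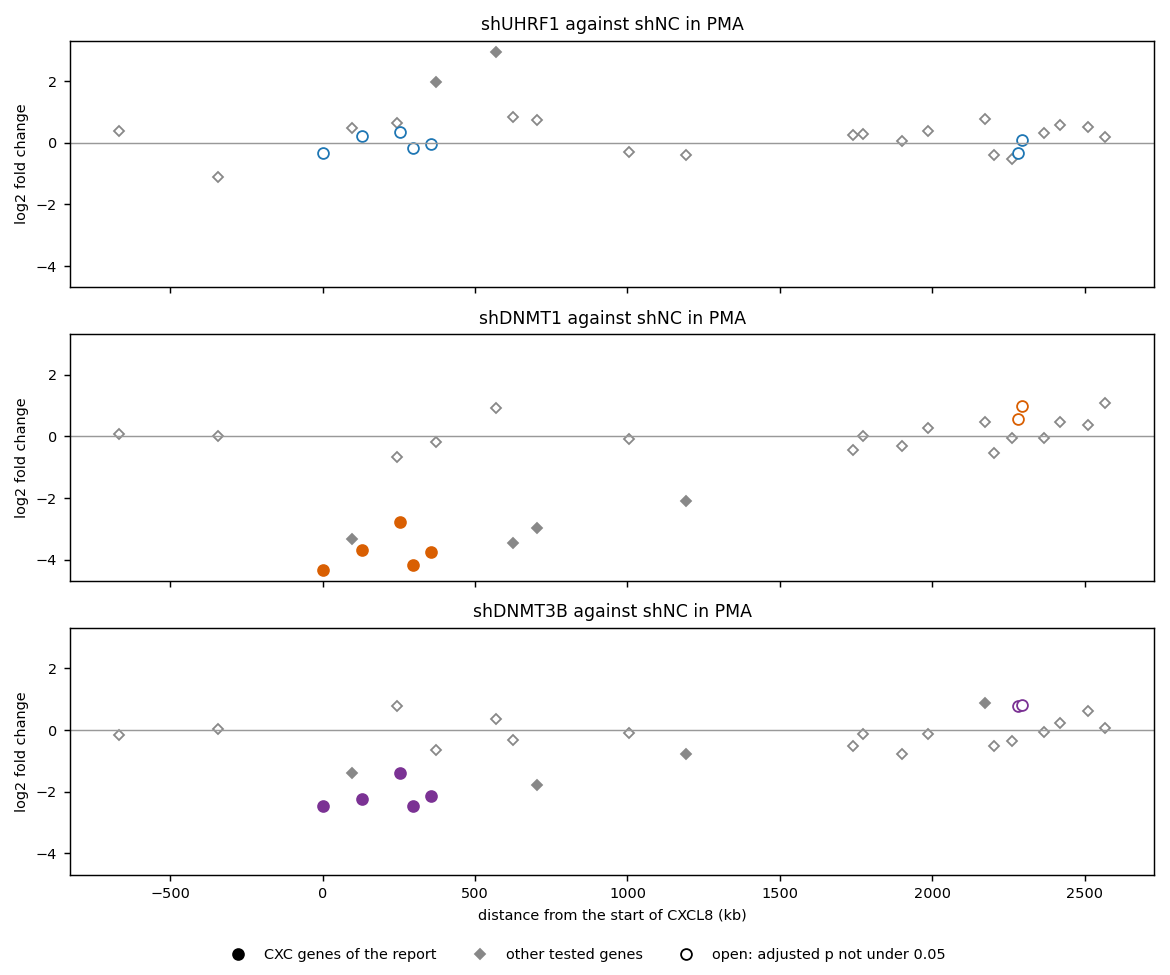
Log2 fold change against shNC in PMA for the 28 tested genes around the chromosome 4 chemokine genes, by distance of their lower coordinate from the start of CXCL8 in kb; coloured circles are the 7 members, grey diamonds the other 21 genes, and filled symbols have an adjusted p under 0.05. In shDNMT1 and shDNMT3B the 5 ELR genes lie below 0 together with CXCL6 and AREG, and CXCL10 and CXCL11, 2281 and 2293 kb away, lie above 0 without being called.

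The other genes of the pathway were described from lists of ligands, receptors, signaling proteins, processing enzymes and inducers. Of 12 other chemokine genes of the CXC, CX3C and XC classes, 6 could be tested: 4 rose and 1 fell with PMA in shNC, where 28.4% of all tested genes rose and 26.0% fell, and CXCL6 and CXCL13 rose by 5.97 and 3.61 (edgeR, adjusted p = 4.0e-06 and 3.2e-04). PPBP had 1 count in shNC DMSO and reached 4.95 ± 1.18 CPM in PMA. CXCL13, a B cell attractant, was higher in shDNMT3B PMA, at 21.4 CPM against 3.61 in shNC (2.57, edgeR, adjusted p = 0.00226). In PMA, 1 of the 6 was called down and 0 up in shDNMT1, beside 6.35% and 8.50% of all genes, and 1 down and 2 up in shDNMT3B, beside 9.05% and 11.3%. Of 11 other receptor genes, 7 could be tested, and in shNC 4 rose with PMA and 3 fell, beside 28.4% and 26.0% of all tested genes. In PMA, 3 of the 7 were higher and 2 lower in shDNMT1 than in shNC, beside 8.50% and 6.35% of all genes. In shDNMT3B 1 was higher and 2 were lower, beside 11.3% and 9.05%. There the replicate block called 2 higher and 3 lower, beside 3376 and 3213 of the 16503 tested genes. CXCR5, the receptor of CXCL13, and ACKR3, a scavenger of CXCL12, were both lower in shDNMT1 PMA (-2.15 and -3.79) and in shDNMT3B PMA (-2.01 and -2.56, edgeR, adjusted p from 1.3e-04 to 0.00182). CX3CR1, the fractalkine receptor, fell from 14.4 to 1.34 CPM with PMA in shNC and stood at 8.58 and 10.03 CPM in shDNMT1 in DMSO and PMA, a difference of the response of 3.62 (edgeR, adjusted p = 0.00117). CCRL2, an atypical receptor, rose by 6.05 in shNC and was higher in shDNMT1 PMA, at 45.0 CPM against 23.1 in shNC (0.96, edgeR, adjusted p = 0.043). CXCR3, the receptor of CXCL10 and CXCL11, was at 1.74 ± 0.511 CPM in shNC DMSO and at 0.129 ± 0.0332 in shDNMT3B DMSO (-3.68, edgeR, adjusted p = 0.00584), and had no count in shNC PMA. It was called higher in shDNMT1 PMA and shDNMT3B PMA, at 0.222 and 0.335 CPM (edgeR, adjusted p = 0.032 and 0.0113), and its PMA response was called higher than in shNC in both lines (adjusted p = 0.0256 and 0.00168). These calls rest on few counts, as 3 counts over a group equal 0.0844 CPM in shDNMT1 PMA and 0.0949 in shDNMT3B PMA. With no count in shNC PMA, the size of these differences is not given.

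Among 23 tested genes of receptor signaling and desensitization, 13 rose and 7 fell with PMA in shNC, beside 28.4% and 26.0% of all tested genes, including the G protein regulators RGS16 (log2 change 6.04) and RGS2 (4.50) and the PI3-kinase subunit gene PIK3R5 (4.45). In PMA, 6 were higher and 3 lower in shDNMT1 than in shNC, beside 8.50% and 6.35% of all genes, and 8 and 7 with the replicate block. In shDNMT3B 3 were higher and 6 lower, beside 11.3% and 9.05%, and 4 and 7 with the block, beside 3376 and 3213 genes. PIK3R5 was lower in both lines (-0.97 and -0.82). RGS2 was higher in shDNMT3B PMA, at 408 ± 17.2 CPM against 124 ± 1.39 (1.72, edgeR, adjusted p = 5.4e-06), and RGS16 lower, at 729 ± 13.2 against 2088 ± 79.0 CPM (-1.52, adjusted p = 1.4e-04). Of 19 genes for chemokine processing and for the decay of their transcripts, 11 rose and 5 fell with PMA in shNC, against the same shares of all genes. MMP9, a protease that trims CXC chemokines, and ZFP36L1, which speeds the decay of AU-rich transcripts, rose by 10.68 and 8.03. ZFP36L1 was at 473 CPM in shNC PMA and 215 CPM in shDNMT1 PMA (-1.14, edgeR, adjusted p = 0.0268). DPP4, which cuts and inactivates CXCL10, and PADI2, which citrullinates arginines, had a higher PMA response in shDNMT1 than in shNC (2.36 and 3.72, edgeR, adjusted p = 0.0317 and 5.0e-05).

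Of the 22 tested inducers, genes for cytokines and transcription factors that activate CXC chemokine genes, 20 rose and 0 fell with PMA in shNC, beside 28.4% and 26.0% of all tested genes, and the replicate block called 21 up and 1 down. Their median log2 change was 1.60, against -0.00494 over all genes. IL1B, whose cytokine induces CXCL8, went from 1.88 ± 0.575 to 2402 ± 279 CPM (10.32, edgeR, adjusted p = 5.1e-10). In shDNMT1 PMA, 9 inducers were lower and 1 higher than in shNC, beside 6.35% and 8.50% of all genes. With the block 13 were lower and 3 higher, beside 2486 and 2690 genes. IL1B was at 271 CPM there and at 971 CPM in shDNMT3B, differences of -3.15 and -1.31 (edgeR, adjusted p = 8.6e-06 and 0.00241), and FOSL1 of the AP-1 family differed by -0.87 in shDNMT1 (adjusted p = 0.0104). JUN, which rose by 4.31 in shNC, was not called in either line in PMA (-0.50 and -0.45). In shDNMT3B PMA 4 inducers were lower and 0 higher, beside 9.05% and 11.3% of all genes. The replicate block called 13 lower and 2 higher there, beside 3213 and 3376 genes. In shUHRF1 PMA edgeR called 0 (5 had an unadjusted p under 0.05), beside 1.65% and 2.04% of all genes. The block called 4 lower and 4 higher there, beside 1136 and 1378 genes. In DMSO, 3, 6 and 5 inducers were lower in shUHRF1, shDNMT1 and shDNMT3B, beside 1.15%, 3.39% and 2.89% of all genes, and 0 were higher in each. With the block 5, 13 and 8 were lower, beside 1134, 1523 and 1882 of all genes, and 1, 0 and 1 higher, beside 757, 717 and 1201. IRF7 and IRF9, which carry interferon signals to genes such as CXCL10, were among the lower ones in all 3 lines. IRF7 was at 47.1 CPM in shNC DMSO, 13.7 in shUHRF1, 3.85 in shDNMT1 and 7.64 in shDNMT3B (log2 difference from shNC -1.78, -3.61 and -2.62, edgeR, adjusted p = 6.4e-05, 9.7e-08 and 9.7e-07). The part of these factors in the CXC chemokine levels was not tested.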

How the data were processed

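Raw read counts per gene, as the authors deposited them, were used for the 16 libraries. Per the study's methods and the submitters' processing notes, polyadenylated RNA was sequenced as paired reads of 150 bases, aligned to hg38 with STAR 2.4.0b and counted with HTSeq 0.6.1p1. The authors also measured expression levels with Cufflinks 2.1.1 and took normalization factors for their own tests from DEGES with edgeR, and the deposited counts carry neither. The strand setting and the annotation release are not given in the sources used here. Columns were assigned to groups by the condition in their names, with the replicate number taken from the name, and 0 columns belonged to no group. GENCODE release 44 named 60357 of the 60676 identifiers.

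Genes passing filterByExpr (minimum count 10, minimum total 15) were fitted with edgeR 4.0.16 in R 4.3.3 (quasi-likelihood, TMM, robust) with all 8 groups in 1 fit, and p values of the 13 comparisons were adjusted by Benjamini-Hochberg over 16503 genes. CPM and per-length TPM were computed from the counts. Folds against a group without counts used a floor of 3 counts over the group, which covers counting error only. Same-numbered libraries deviated together in 28 of 28 pairs of groups (correlation 0.220 to 0.508), so the numbers were taken as pairs and the fit with the number as a block is given where it changed the call of a member or moved a list's count by over 1.5 times. The common dispersion was 0.0439 without and 0.0115 with the block. Other alternatives were DESeq2 1.42.0, upper-quartile factors, no filter on low counts, only the groups compared, an exact test after 3 rounds of DEGES (the study's kind of test), and leaving out each library. The fit was tested on simulated data.

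The members, pathway lists and tests were chosen with earlier results of these data known. Of each list up to 3 genes were named, by the smallest adjusted p for PMA in shNC among genes of at least 1 CPM, plus up to 5 called in a difference of the response; IRF9 in shDNMT1 and the chromosome 4 neighbours lie outside this rule or were chosen after their values were seen. Single values of 1 listed gene are not reported here.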

Additional observations from a re-analysis of the deposited data

Results flagged for a closer look

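In 14 cases the PMA response of a CXC gene differed between a knockdown line and shNC when the difference itself was tested (edgeR, over all genes). In shUHRF1 the response was higher by 2.00 for CXCL10, 2.59 for CXCL11 and 3.52 for CXCR2 on the log2 scale. In shDNMT1 it was higher by 5.45 for CXCL10, 6.12 for CXCL11 and 3.95 for CXCR2, and the values for CXCL1, CXCL2, CXCL8 and CXCR4 were -2.62, -2.78, -3.32 and -2.68. In shDNMT3B it was higher by 3.84 for CXCL10, 5.97 for CXCL11 and 3.59 for CXCR2, and the value for CXCL2 was -2.10. The 3 lines were compared with the same shNC libraries. With 2 libraries in each group, the members' values were not searched for a single library apart from its group.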

How the results depend on the processing

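Of the member values recomputed under each alternative, none changed sign while called. With the replicate block, 113 of 130 kept their side of the threshold and 17 passed it that had not, with DESeq2 122 and 8, with upper-quartile factors 129 and 1, without the filter 118 and 12, and after DEGES 84 of 89 and 5. With only the groups compared, 106 of 119 kept it, 8 lost it and 5 gained it, and over all left-out libraries 608 of 640 kept it, 31 lost it and 1 gained it. Counts of members called moved by over 1.5 times as follows. With the replicate block, they went from 2 to 4 in shDNMT1 DMSO, 2 to 4 in shDNMT3B DMSO, 1 to 2 in shUHRF1 PMA, 6 to 10 in shDNMT3B PMA and 4 to 7 for the difference in shDNMT3B; the pairing changed no other call of a member than those given beside the results. With only the groups compared, they went from 2 to 0 in shUHRF1 DMSO, 2 to 1 in shDNMT3B DMSO, 1 to 0 in shUHRF1 PMA and 3 to 0 for the difference in shUHRF1. Without the filter, shDNMT1 DMSO had 5. Leaving out 1 library gave 1 to 2 in shUHRF1 DMSO, 0 to 1 in shUHRF1 PMA and 0 to 1 for the difference in shUHRF1. The cause of these changes was not tested. Over all genes, the block raised the calls in shUHRF1 DMSO from 28 up and 189 down to 757 and 1134. In shDNMT3B PMA it turned 1864 up and 1493 down into 3376 and 3213, and upper-quartile factors turned them into 2347 and 1027. In the PMA responses these factors gave 3787 up and 5722 down in shUHRF1, 3787 and 5315 in shDNMT1 and 3298 and 4542 in shDNMT3B, against 4847 and 4207, 4721 and 3973, and 4157 and 3253. With 2 libraries a group and few counts of ELR genes and CXCL16 in DMSO, small differences there were not detectable at this depth.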
